A study of Mus musculus with 19 samples.

Results

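WSB/EiJ and NOD/ShiLtJ induced pluripotent stem cells (iPSC) grown in the same medium were compared gene by gene. WSB/EiJ is a wild-derived inbred mouse strain and NOD/ShiLtJ is a classical inbred strain that develops autoimmune diabetes. The members are the 4 WSB iPSC clones (12, 23, 25 and 28) and the NOD iPSC clones 7 and 52, chosen by their titles, which makes 6 of the 19 libraries of the series. The series also holds 129S1/SvImJ iPSC, embryonic stem cells (ESC) of all 3 strains and epiblast stem cells (EpiSC) of 129S1/SvImJ and NOD. The study asked whether strains that do not yield iPSC under standard conditions do so in 2iS, and the comparison of its WSB and NOD clones asks how far iPSC of those strains differ from each other once derived.

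All 6 clones came from embryonic fibroblasts of pooled littermates of an inbred strain and were reprogrammed with the STEMCCA lentivirus, which carries Pou5f1, Klf4, Sox2 and Myc. The vector was not excised, so counts on these 4 genes may include vector transcripts. They were derived and kept in 2iS, the serum and LIF medium for ESC with the GSK3B inhibitor CHIR99201 and the MEK inhibitor PD0325901. WSB clones 12 and 25 were male and clones 23 and 28 female, at passage 16, or 20 for clone 28. Both NOD clones were female, at passages 17 and 18. The male NOD clones 3 and 35 were left out because 5.62% and 5.59% of their uniquely aligned read pairs were counted on genes, against 1.41% to 1.74% in the 6 clones. Each clone gave 1 library, so p-values measure the spread between clones. The paper describes fibroblasts from the pooled embryos of 1 litter for each strain. Strain therefore cannot be told apart from litter or from the reprogramming of that fibroblast stock. The source names and characteristics of the samples name other conditions than the titles. Counts on 4 genes of Chromosome Y lay between 5 and 19 in the 2 male clones and at 0 in the 4 female ones, as the titles have it.

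Inbred strains differ at fixed sequence variants, and each clone of a strain shares them, so differences that they encode recur in every clone. Clones of the same strain can still differ in epigenetic marks such as imprints, which restrict a gene to the copy from 1 parent and can be lost or gained during reprogramming. In naive pluripotent cells, LIF and the 2 inhibitors hold a network of transcription factors, among them Pou5f1, Nanog and Esrrb, in place.

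Between 95702 and 189587 read pairs were counted per library, and WSB clones 23, 25 and 28 (95702 to 107623) were shallower than the other 3. The unit of level is CPM, in which each library's counts on the genes tested are brought to the same total. A count of 3 corresponded to 19.2 CPM in WSB clone 12, the deepest, and to 37.4 CPM in WSB clone 23, the shallowest. From 59.4% to 63.7% of the counts fell on genes with exons opposite another gene's exons, a class that holds 24.6% of the annotated genes. The libraries were made with a kit that keeps the strand, and the strand setting of the counting is not given in the sources used here. The count of such a gene cannot be told apart from that of its opposite-strand partner. Only 1.41% to 1.74% of uniquely aligned read pairs were counted on genes. Of the most counted genes, 82% to 88% had exons opposite another gene's exons in the WSB and NOD clones compared. In the NOD clones 3 and 35, which were left out, the shares were 38% and 39%. Whether the counts, also those of genes without such exons, are of the opposite strand was not tested. A count given here is therefore the count assigned to a gene's name and need not be the level of its transcript. Gapdh, the glycolytic enzyme used as an abundant control, had 0 to 4 counts per clone and was not tested. Actb (actin), in contrast, stood at 1405 ± 354 CPM (SD, n = 4) in WSB and 1391 ± 228 CPM (SD, n = 2) in NOD. The log2 fold changes of Actb, Eef1a1 and Eef2 were 0.01, -0.46 and 0.24 (adjusted p = 0.996, 0.239 and 0.726).

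Both strains had the summed naive pluripotency factors above the EpiSC. The 20 naive factors summed to 2744 to 3767 CPM in WSB and 2682 to 3462 CPM in NOD. Scaled over all 19 libraries, the same sum was 2686 to 3669 CPM in the 6 clones and 411 to 752 CPM in the 2 EpiSC. Of 12 naive factors tested, 0 passed the threshold, beside 2.98% of all autosomal genes tested, a share at which none in so short a list is near the background. Their median log2 fold change was 0.08 beside 0.01 over all autosomal genes tested. Nanog counts were 16 and 25 in NOD clones 7 and 52 and 24, 12, 12 and 15 in WSB clones 12, 23, 25 and 28, with overlapping levels (log2 fold change 0.10, adjusted p = 0.948). Esrrb, another naive factor, had 42 and 25 counts in NOD and 36, 18, 17 and 27 in WSB (0.06, adjusted p = 0.971).

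Of 7 core factors tested, 0 passed. Pou5f1 stood at 819 ± 91.8 CPM (SD, n = 4) in WSB and 534 ± 56.6 CPM (SD, n = 2) in NOD (log2 fold change 0.62, adjusted p = 0.231), and Myc at 277 ± 91.9 and 121 ± 2.97 CPM (1.21, adjusted p = 0.0851). Both lists include vector genes. Of the primed markers, which rise when cells leave the naive state, 3 of 20 had enough counts to test and 0 passed. Feeder fibroblast markers summed to 973 to 1192 CPM in WSB and 1274 to 1416 CPM in NOD, and 12 of the 30 had 0 counts in all 6 clones. Of 3 feeder markers tested 0 passed. Fn1 (fibronectin) stood at 576 ± 142 CPM in WSB and 1081 ± 96.4 CPM in NOD (log2 fold change -0.91, adjusted p = 0.0515). Fn1 passed with sex as a term (-1.20, adjusted p = 0.00516), among females (-1.18, 0.0144) and among 12 iPSC (-0.92, 0.0158), lower in WSB in each. In a bulk sample, fewer cells of a kind and less RNA per cell cannot be told apart.

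Of 2687 autosomal genes with enough counts to test, 80 (2.98%) differed between WSB and NOD iPSC at an adjusted p under 0.05. In WSB 36 (1.34%) were higher and in NOD 44 (1.64%) were higher. The smallest change past the threshold was 0.99 on the log2 scale. In 79 of the 80, every WSB clone lay on 1 side of both NOD clones, which was so for 21.2% of all genes tested. The exception was Fam151a. Passing the threshold with so few clones nearly requires this separation, so it is no further support. Some genes had enough counts to test in 1 strain alone, which nearly fixed their direction and separation. Among them were Egf, Myrfl, Mmp9, Gm16325, Ctgf, Cmah and Dfna5 in WSB, and Frem2, Ly6e and Trpm1 in NOD. The 12 genes named by size of change in each direction were also required not to overlap. A further 4 genes past the threshold are not autosomal and are not described, since the sexes were not balanced. The count fell to 35 without NOD clone 7 and to 28 without NOD clone 52, where 1 NOD library stood for its strain, and was 117 without WSB clone 28. Of the 80 genes, 46 (57.5%) had opposite-strand exons, beside 50.9% of the genes tested.

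**Figure D1:**
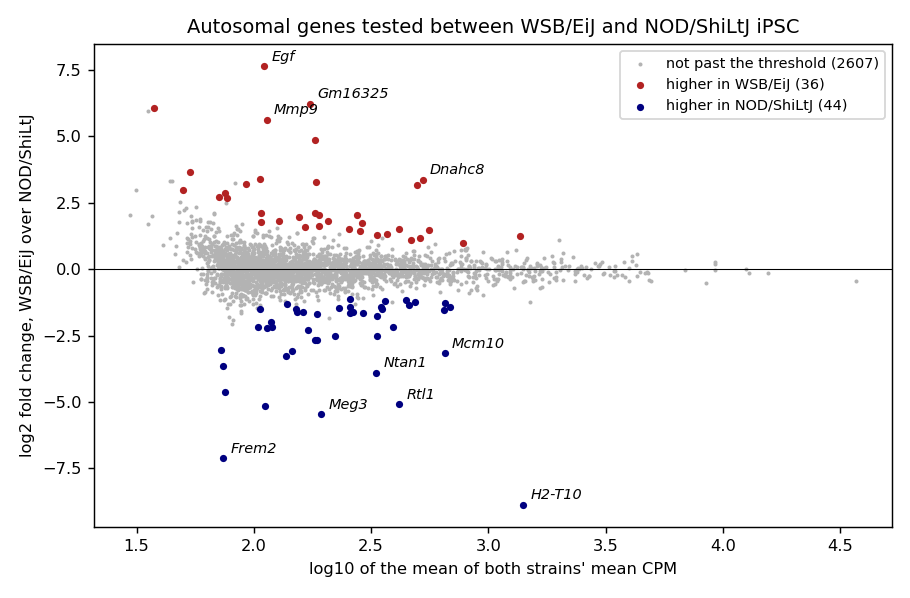
Log2 fold change of WSB/EiJ over NOD/ShiLtJ iPSC (vertical axis) against the log10 of the mean of both strains' mean CPM (horizontal axis) for the autosomal genes tested. Points in red (36) and blue (44) passed the threshold, and H2-T10 lies lowest of all genes at -8.87.

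H2-T10, a nonclassical class I gene of the major histocompatibility complex (MHC), had the largest change. It was counted 459 and 354 times in NOD clones 7 and 52, and 0, 0, 0 and 2 times in WSB clones 12, 23, 25 and 28. NOD was high in both clones and WSB at or near 0 in all 4. The pooled ratio was 576 in favour of NOD (exact 95% counting interval 159 to 4761), and the log2 fold change -8.87 ± 0.45 (SE, adjusted p = 8e-11). H2-T10 lies at chr17:36115876-36121465 (GRCm38, minus strand), is annotated as a polymorphic pseudogene, and shares 925 exonic bases with BC023719 on the opposite strand. NOD cells of other states also had counts, 149 in the NOD ESC and 392 in the NOD EpiSC, and the WSB ESC had 0.

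The neighbouring class I gene H2-T24 (chr17:36005695-36020560, minus strand) moved the same way. It had 36 and 35 counts in NOD and 2, 0, 7 and 1 in WSB, with no overlap (log2 fold change -3.26 ± 0.55, adjusted p = 0.00139). Without NOD clone 52 its adjusted p was 0.0597. Of 42 MHC genes in the files, only H2-T10 and H2-T24 had enough counts to test. Both passed the filter on their NOD counts alone, which nearly fixed their direction. They give no result about MHC genes as a group, beside 1.64% of all genes tested that were higher in NOD. The classical class I genes H2-K1 and H2-D1 had at most 3 counts in any of the 6 clones and were not tested. These counts, like those of every gene here, come from alignment to the C57BL/6J reference. The effect of strain variants on alignment, in the highly polymorphic MHC or elsewhere, was not tested.

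Ly6e, a membrane protein of the interferon response, was another immune gene higher in NOD, with 23 and 19 counts against 0, 0, 0 and 2 in WSB (log2 fold change -4.61 ± 0.83, adjusted p = 0.00242). Its adjusted p was 0.305 without NOD clone 7 and 0.225 without NOD clone 52. Of 35 interferon genes in the files only it and Trim25 could be tested, and Trim25 stood at 121 ± 44.2 CPM in WSB and 119 ± 52.1 CPM in NOD. Ifitm7, of the interferon-induced transmembrane family, had 55 and 39 counts in NOD and 11, 0, 8 and 2 in WSB (-2.66 ± 0.47, adjusted p = 0.00203). It lies outside the rule for named genes and was chosen after its values were seen.

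The transcripts Meg3, Rian and Rtl1 of the imprinted Dlk1-Dio3 cluster on Chromosome 12 were higher in NOD. The first of them, Meg3, the maternally expressed long noncoding RNA at the head of the cluster, had 36 and 70 counts in NOD clones 7 and 52 and 0, 3, 0 and 0 in WSB clones 12, 23, 25 and 28. Rian, the noncoding host of small nucleolar RNAs, had 21 and 40 against 0, 2, 0 and 0. Rtl1, a retrotransposon-derived gene, had 98 and 130 against 0, 9, 0 and 0. WSB clone 23 was thus the only 1 of the 4 WSB clones with counts on any of the 3, and it lay below both NOD clones for each.

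The log2 fold changes were -5.46 ± 0.66 for Meg3 (adjusted p = 3.37e-05), -5.17 ± 0.73 for Rian (adjusted p = 0.000241) and -5.08 ± 0.62 for Rtl1 (adjusted p = 3.61e-05). With so few WSB counts the pooled ratio of NOD to WSB was 50.0 for Meg3 (exact 95% counting interval 16.7 to 246) and 43.2 for Rian (11.5 to 365). DESeq2's Wald test gave adjusted p = 0.271 for Meg3 and 0.819 for Rtl1, and Rian lost the threshold without NOD clone 52 (adjusted p = 0.317). Rtl1 (chr12:109589193-109600330, minus strand) overlaps 4 microRNA genes on the opposite strand, Mir433, Mir434, Mir431 and Mir432. Whether its counts come from Rtl1 or from transcripts of the opposite strand was not tested. Meg3 shares 1228 exonic bases with Gm26906.

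The promoter of Meg3 is shown because 3 of the 4 imprinted genes that passed lie in this cluster. It is the window from RefSeq on GRCm38.p6, plus strand, of the C57BL/6J reference, chr12:109540746-109541045, with every CpG in capitals.
Meg3: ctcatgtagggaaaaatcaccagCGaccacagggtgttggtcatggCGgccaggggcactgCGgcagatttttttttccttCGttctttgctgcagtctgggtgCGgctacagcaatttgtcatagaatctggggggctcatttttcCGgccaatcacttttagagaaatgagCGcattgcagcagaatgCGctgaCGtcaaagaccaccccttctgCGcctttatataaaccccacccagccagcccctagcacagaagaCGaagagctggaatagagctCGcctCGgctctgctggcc
The window holds 13 CpG, where the median of 32851 promoter windows is 7 and 37.9% of windows hold at least as many. Read on both strands, it holds the letters TGACGTCA, the cAMP response element, which is in 1.79% of all windows. It also holds the CCAAT box, spelled by those letters and present in 37.4%, and the TATA box, spelled TATAAA and present in 13.6%. Methylation was not measured.

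The WSB ESC had counts on the cluster where the WSB iPSC had few: 21 on Meg3, 4 on Rian and 47 on Rtl1, against 38, 12 and 129 in the NOD ESC. Counts on the cluster varied between clones of 129 too. The 129 iPSC clones 1 and 17 in 2iS had 0 counts on all 3. In ESC/LIF, clone 1 had 6, 1 and 14 counts on Meg3, Rian and Rtl1, clone 17 had 0, 0 and 1, clone 5 had 22, 5 and 99, and clone 8 had 28, 25 and 139. The male NOD clones 3 and 35, which were left out, had 691 and 159 counts on Meg3, in libraries with more counted read pairs. Scaled over all 19 libraries, Meg3 stood at 1199 and 348 CPM in them, Rian at 491 and 223 CPM and Rtl1 at 314 and 83.2 CPM. On that scale Rtl1 stood at 629 and 971 CPM in NOD clones 7 and 52. In WSB clone 23 it stood at 110 CPM, above NOD clone 35.

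Plagl1, an imprinted zinc finger transcription factor on Chromosome 10, was also higher in NOD. It had 61 and 65 counts in NOD and 16, 20, 11 and 8 in WSB, without overlap (log2 fold change -1.66 ± 0.34, adjusted p = 0.00671). The adjusted p was 0.102 without NOD clone 52 and 0.0624 among female clones. Of 14 imprinted genes tested, 4 were higher in NOD, 0 were higher in WSB and 10 did not pass, beside 1.64% of all genes tested that were higher in NOD and 1.34% higher in WSB. The median log2 fold change was -0.45 beside 0.01 over all genes tested. Meg3, Rian and Rtl1 lie in 1 cluster and had enough counts to test in NOD alone. The counts of genes that passed and the median are therefore no result about imprinted genes as a group. The other 24 of 38 listed had too few counts to test. Among these, Grb10, an imprinted adaptor of insulin and growth factor receptors that was chosen after its values were seen, had 1 and 0 counts in NOD and 11, 5, 5 and 7 in WSB, a pooled ratio of 19.8 in favour of WSB (exact 95% counting interval 3.27 to 809). Among the 10 that did not pass, Igf2r, the receptor that clears IGF2, stood at 98.9 ± 32.1 CPM in WSB and 149 ± 0.26 CPM in NOD (adjusted p = 0.493). Peg10, another retrotransposon-derived imprinted gene, had 24 and 36 counts in NOD and 44, 97, 15 and 25 in WSB, and the strains overlapped (adjusted p = 0.352).

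**Figure D2:**
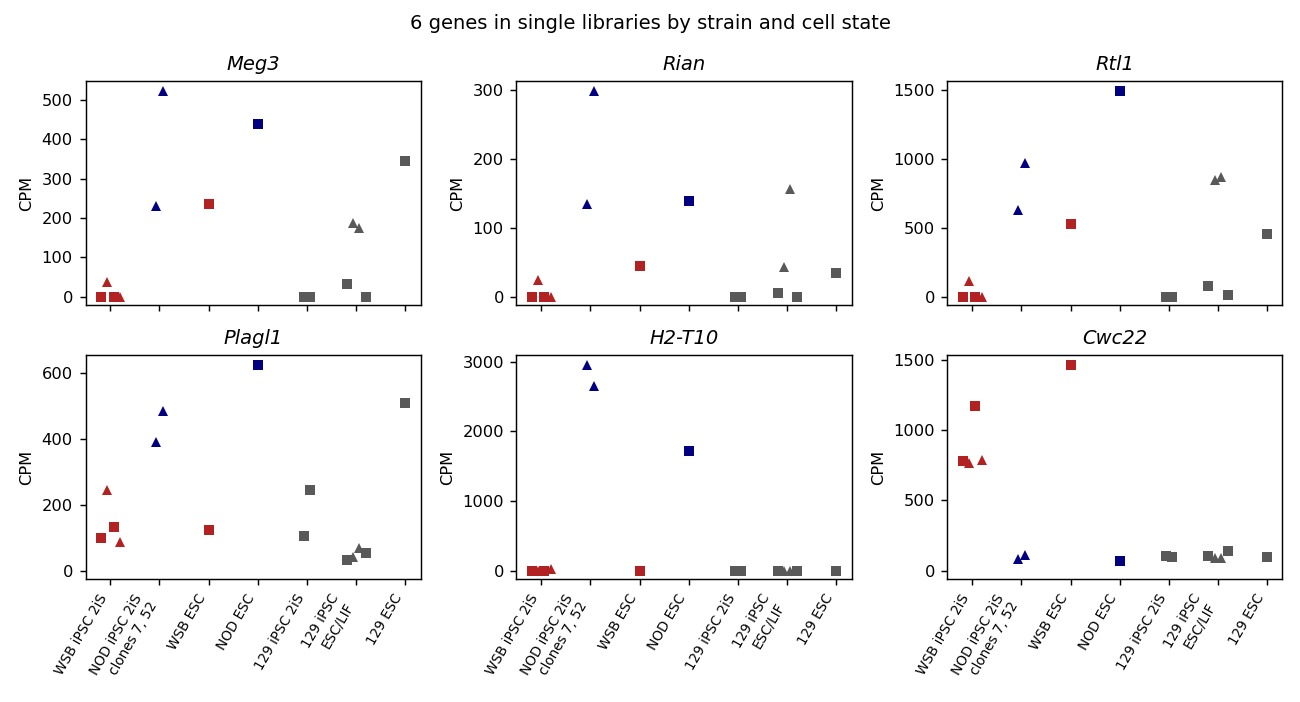
CPM, scaled over all 19 libraries, of Meg3, Rian, Rtl1, Plagl1, H2-T10 and Cwc22 (vertical axes) by strain, cell state and medium (horizontal axis); each point is 1 library, a triangle for female cells and a square for male cells, in red for WSB, blue for NOD and grey for 129. H2-T10 is high in NOD iPSC and ESC and Cwc22 in WSB iPSC and ESC, whereas Meg3, Rian and Rtl1 are higher in the WSB ESC than in every WSB iPSC clone.

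Among the other genes higher in NOD, Mcm10, a factor of DNA replication initiation, had the highest count after H2-T10. It had 199 and 142 counts in NOD and 25, 8, 11 and 10 in WSB (1175 ± 166 and 126 ± 27.0 CPM). The strains were far apart relative to the spread between clones (log2 fold change -3.17 ± 0.27, adjusted p = 3.5e-07). The ESC showed the other order, with 3 counts in NOD and 17 in WSB. Ntan1, an amidase of the N-degron pathway of protein degradation, had 107 and 75 counts in NOD and 8, 2, 3 and 4 in WSB (-3.89 ± 0.33, adjusted p = 3.5e-07). It shares 713 exonic bases with Pdxdc1 on the opposite strand, for which the log2 fold change was -0.07 (adjusted p = 0.95).

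Frem2, an extracellular matrix protein of epithelial basement membranes, had 26 and 17 counts in NOD and 0 in each of the 4 WSB clones. Set against a floor of 3 counts over the WSB group, it was at least 20.3-fold higher in NOD (adjusted p = 0.000944). The adjusted p rose to 0.305 without NOD clone 7 and 0.0702 without NOD clone 52. Trpm1, a cation channel, had 17 and 22 counts in NOD and 1, 1, 0 and 2 in WSB (log2 fold change -3.65 ± 0.72, adjusted p = 0.00507), and its adjusted p was 0.214 without NOD clone 7.

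The neighbours Ipp and Tmem69 on Chromosome 4, 13389 bases apart, were both higher in NOD. Ipp, a kelch-family gene that can be transcribed from a retroviral promoter, had 17 and 20 counts in NOD and 2, 2, 0 and 2 in WSB (-3.04 ± 0.67, adjusted p = 0.0132). Tmem69, a transmembrane protein, had 31 and 43 against 4, 1, 6 and 1 (-3.09 ± 0.47, adjusted p = 0.000595). Neither gene overlapped between the strains. Ipp lost the threshold without NOD clone 7 (adjusted p = 0.334) or with sex as a term (0.0718), and Tmem69 without NOD clone 52 (0.110).

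Egf, the epidermal growth factor, was among the genes higher in WSB. It had 0 counts in both NOD clones and 21, 23, 8 and 33 in WSB clones 12, 23, 25 and 28, and so had enough counts to test in WSB alone. Against a floor of 3 counts over the NOD group it was at least 20.01-fold higher in WSB (adjusted p = 0.000354). The WSB ESC and the NOD ESC had 1 count each. Egf lies at chr3:129677565-129755316 and shares 1107 exonic bases with genes on the opposite strand.

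Mmp9, a secreted gelatinase that degrades matrix, had 1 and 0 counts in NOD and 35, 17, 14 and 26 in WSB. The pooled ratio was 65.0 (exact 95% counting interval 11.4 to 2594) and the log2 fold change 5.64 ± 0.66 (adjusted p = 2.92e-05). In the ESC it had 41 counts in WSB and 1 in NOD. Gm16325, an antisense transcript of Chromosome 3 that shares 1054 exonic bases with 4930503B20Rik, had 0 and 1 counts in NOD and 47, 15, 37 and 39 in WSB, a pooled ratio of 97.5 (17.2 to 3877; adjusted p = 1.91e-05). In the ESC it had 74 counts in WSB and 0 in NOD, the same order as in iPSC.

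Cwc22, a splicing factor that loads the exon junction complex, had 13 and 15 counts in NOD and 126, 63, 97 and 73 in WSB. The gene stood at 898 ± 196 CPM (SD, n = 4) in WSB and 98.1 ± 19.3 CPM (SD, n = 2) in NOD, without overlap (log2 fold change 3.18 ± 0.33, adjusted p = 5.64e-06). It passed the threshold in each alternative fit with groups by title and with each clone left out in turn, and not with groups by source name and characteristics, where 0 genes passed. Cwc22 (chr2:77881159-77946375, minus strand) has no exon opposite another gene. It lies in a segment of Chromosome 2 that is known to be amplified in copy number in WSB/EiJ, and copy number was not measured here. The WSB ESC had 131 counts and the NOD ESC 6.

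Cmah, the enzyme that hydroxylates CMP-sialic acid, had 0 and 3 counts in NOD and 10, 51, 13 and 50 in WSB (log2 fold change 4.87 ± 0.98, adjusted p = 0.00615). Within WSB the female clones 23 and 28 were higher than the male clones 12 and 25, and this difference passed as well (2.54, adjusted p = 0.00107). Without NOD clone 7 the strain difference did not pass (adjusted p = 0.150). Dnahc8, an axonemal dynein heavy chain, had 14 and 12 counts in NOD and 98, 168, 52 and 43 in WSB (3.37 ± 0.55, adjusted p = 0.000944), and its change was 2.67 without WSB clone 23, the highest. Afap1l1, an actin-binding adaptor, had 3 and 2 counts in NOD and 28, 8, 16 and 18 in WSB (3.22 ± 0.53, adjusted p = 0.000944).

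A further 4 of the genes with the largest change toward WSB had at most 6 counts in either NOD clone. Ctgf, a matricellular target of YAP signalling, had 1 and 1 counts in NOD and 15, 8, 4 and 14 in WSB, a pooled ratio of 14.5 (3.76 to 124; adjusted p = 0.0159), and it did not pass without NOD clone 7 (0.271), without NOD clone 52 (0.189) or in DESeq2 (0.058). Smurf1, a ubiquitin ligase of the BMP pathway, had 4 and 6 in NOD and 80, 15, 4 and 52 in WSB, where clone 25 lay next to NOD (3.27 ± 0.70, adjusted p = 0.00987), and it did not pass without NOD clone 7 (0.222), without NOD clone 52 (0.0661) or in DESeq2 (0.123). Myrfl had 0 and 0 in NOD and 6, 6, 8 and 8 in WSB, at least 6.59-fold higher in WSB (adjusted p = 0.0388), and did not pass without WSB clone 25 (0.0645). Dfna5 (gasdermin E) had 2 and 1 in NOD and 16, 8, 9 and 4 in WSB, a pooled ratio of 8.71 (2.76 to 44.2, adjusted p = 0.0467). Dfna5 did not pass without WSB clone 25 (0.0756), in DESeq2 (0.116), with sex as a term (0.116) or among 12 iPSC (0.0554). Neither Myrfl nor Dfna5 could be tested without NOD clone 7, NOD clone 52 or WSB clone 12, or among females. Ctgf could not be tested without WSB clone 12.

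**Figure D3:**
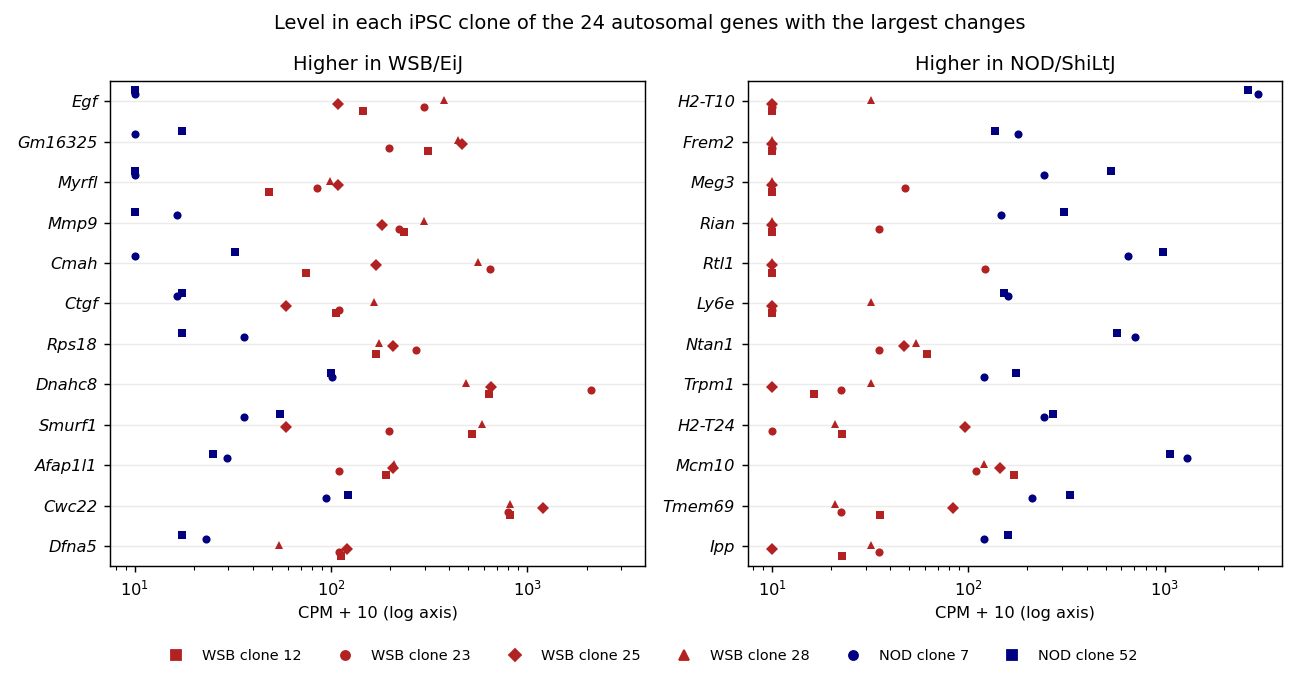
CPM plus 10 on a log axis (horizontal) of the 12 genes with the largest change in each direction (vertical), 1 point per clone, WSB in red and NOD in blue. The 24 genes were chosen among those whose strains do not overlap. WSB clone 25 lies nearest to NOD for Smurf1, and WSB clone 23 is the highest WSB clone for Meg3, Rian and Rtl1.

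In the metabolic and housekeeping lists, single genes passed, as 2.98% of all autosomal genes tested did. Of 33 ribosomal protein genes tested, Rps18 was higher in WSB, Rps26 was higher in NOD and 31 did not pass. Rps18 had 4 and 1 counts in NOD and 25, 21, 16 and 15 in WSB (log2 fold change 3.40 ± 0.52, adjusted p = 0.000595), and Rps26 had 35 and 31 in NOD and 9, 12, 2 and 7 in WSB (-1.60 ± 0.41, adjusted p = 0.0388). Ribosomal protein genes have many near-identical processed copies, so counts of these 2 are uncertain. Rps26 did not pass without NOD clone 7 (0.274), NOD clone 52 (0.220), WSB clone 12 (0.138) or WSB clone 25 (0.0701), in DESeq2 (0.156), with aligned read pairs as library size (0.0633), with sex as a term (0.241) or among females (0.299).

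Of 10 glycolysis genes tested, Pfkp, the platelet phosphofructokinase, was higher in WSB, with 38 and 47 counts in NOD and 122, 50, 46 and 118 in WSB (819 ± 336 and 299 ± 73.1 CPM; adjusted p = 0.0159). Its partner Pitrm1 on the opposite strand, with which it shares 748 exonic bases, had a log2 fold change of 1.62 (adjusted p = 0.0856). Pfkp did not pass without NOD clone 7 (0.335) or NOD clone 52 (0.0702), or among genes with at least 10 counts in every library (0.0586). Of 10 one-carbon and serine enzymes tested, Psph, the last enzyme of serine synthesis, was higher in NOD, with 32 and 25 counts against 11, 7, 7 and 7 in WSB (adjusted p = 0.0414), and it lost the threshold without any 1 clone except WSB clone 28 (0.0551 to 0.369), in DESeq2 (0.314), with aligned read pairs as library size (0.0894), with sex as a term (0.138) and among females (0.181). Of 6 p53 targets tested, Trp53inp1, an inducer of autophagy and cell death, was higher in NOD, with 61 and 37 counts against 14, 9, 16 and 9 (-1.48 ± 0.34, adjusted p = 0.016), but not without NOD clone 7 (0.311), without WSB clone 12 (0.0709) or in DESeq2 (0.0629).

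In the lists for DNA methylation (6 tested), ERK output (3), the LIF pathway (3), glutathione and detoxification (4) and zinc finger genes named Zfp (35), 0 genes passed, beside 2.98% of all genes tested, so these counts are near the background. Tet1, an enzyme that oxidises methylated cytosine, had the lowest adjusted p of the methylation list, with 52 and 55 counts in NOD and 33, 11, 13 and 18 in WSB (374 ± 50.9 and 177 ± 34.4 CPM; adjusted p = 0.058). Of the markers of endoderm, of neural and mesodermal cells, of trophoblast and of the two-cell state, 0 had enough counts to test. Of 233 predicted or clone-named genes tested, 3 were higher in WSB and 9 in NOD, beside 1.34% and 1.64% of all genes tested.

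**Figure D4:**
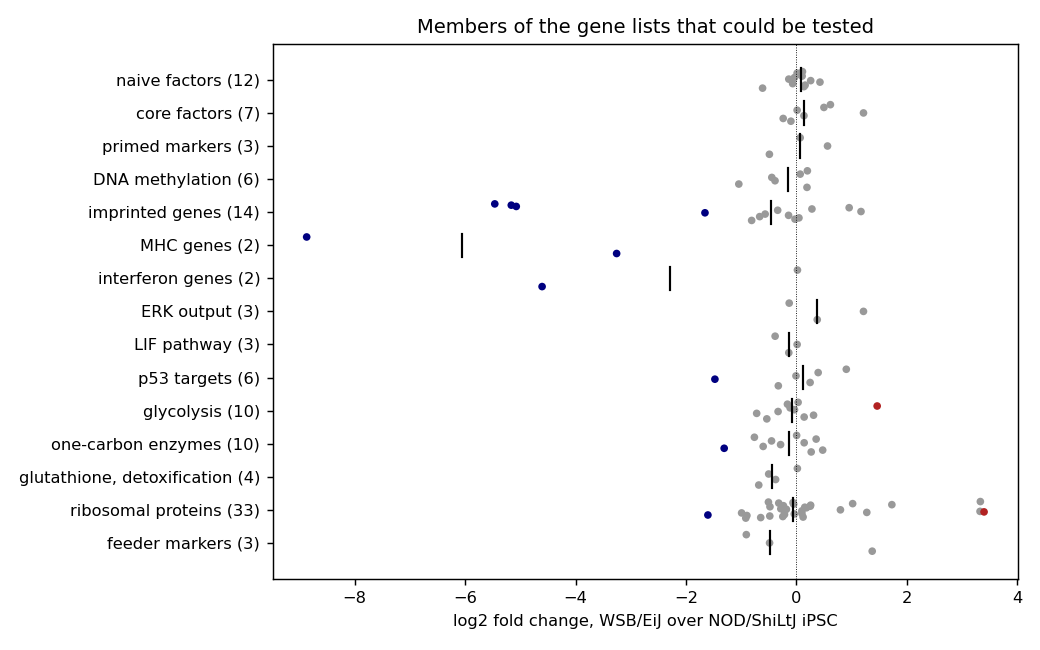
Log2 fold change of WSB over NOD iPSC (horizontal axis) for each tested member of 15 gene lists (vertical axis, number tested in parentheses); grey points did not pass the threshold, red and blue points were higher in WSB and NOD, and the bar is the list's median. The naive factors lie around 0, with 0 of 12 past the threshold, and the imprinted and MHC genes past the threshold all lie on the NOD side. Of these, H2-T10, H2-T24, Meg3, Rian and Rtl1 had enough counts to test in NOD alone, which nearly fixed their side.

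Some genes past the threshold lay side by side. There were 10 pairs of neighbouring genes past the threshold within 1 Mb, 8 of them changed in the same direction and 2 in opposite directions. Meg3 with Rtl1 and Rtl1 with Rian are pairs of 1 cluster. The numbers to be had from all genes tested were not worked out, so these counts do not show that neighbours change together. Gfer, a sulfhydryl oxidase of the mitochondrial intermembrane space, and Noxo1, an organiser of an NADPH oxidase, lie head to head on Chromosome 17 with 77 bases between them. Gfer had 14 and 13 counts in NOD and 48, 16, 17 and 39 in WSB (log2 fold change 1.62 ± 0.38, adjusted p = 0.0196). Noxo1 had 26 and 12 counts in NOD and 49, 51, 19 and 31 in WSB (1.52 ± 0.40, adjusted p = 0.0414). Both rose in WSB, and no WSB clone fell among the NOD clones for either. They lie outside the rule for named genes and were chosen after their values were seen. Noxo1 shares 2122 exonic bases with Tbl3 on the opposite strand, and Gfer has none.

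The promoter that both share is shown because the 2 genes moved together. It is the RefSeq window of Noxo1 on GRCm38.p6, plus strand, of the C57BL/6J reference, chr17:24695984-24696283, and the capitals mark the 79 bases from the start of Gfer, which is read leftwards, to the start of Noxo1, which is read rightwards.
Noxo1: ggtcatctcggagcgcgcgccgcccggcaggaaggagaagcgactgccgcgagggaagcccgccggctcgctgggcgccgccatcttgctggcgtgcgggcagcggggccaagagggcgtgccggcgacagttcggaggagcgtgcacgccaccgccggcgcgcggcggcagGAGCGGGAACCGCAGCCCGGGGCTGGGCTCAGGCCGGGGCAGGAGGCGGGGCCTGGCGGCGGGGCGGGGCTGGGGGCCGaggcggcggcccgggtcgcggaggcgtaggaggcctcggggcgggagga
The window holds 46 CpG, a number that 1.65% of all windows reach. Read on both strands it holds GGGCGG, the GC box, 3 times, a motif found in 35.7% of all windows, and no TATA box, CCAAT box or cAMP response element as spelled for Meg3.

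Gm10069 and Pzp on Chromosome 6 were a pair that moved in opposite directions. Gm10069, an antisense transcript, had 136 and 151 counts in NOD and 55, 27, 42 and 26 in WSB (-1.43 ± 0.26, adjusted p = 0.00242). Pzp, a protease inhibitor of the alpha-2-macroglobulin family, had 17 and 14 counts in NOD and 89, 32, 49 and 19 in WSB (2.05 ± 0.40, adjusted p = 0.00452), and it did not pass among females (0.0532). Their exons overlap on opposite strands by 303 bases, and the 2 genes were also chosen after their values were seen. By chromosome, the share of tested genes that differed ran from 0 of 168 on Chromosome 9 to 9 of 130 (6.92%) on Chromosome 3. The share over all autosomal genes tested was 2.98%. Chromosome 17 had 9 of 145 (6.21%). Of these, only H2-T10 and H2-T24 are in the MHC list, which holds genes by name and not by position. Differences between chromosomes were not tested.

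The ESC of both strains, which never passed through reprogramming and came from other animals, give a second look at the same genes with 1 male library per strain and no test. Of the 80 genes, 68 (85.0%) had the same direction in WSB ESC minus NOD ESC, where 55.6% of all genes tested had the same direction in ESC as in iPSC. ESC and iPSC of a strain share its sequence variants and were aligned to the same reference. The part of alignment in the shared directions was not tested. In 43 of the 80 (53.8%) the ESC difference had that direction and was at least 1 on the log2 CPM scale, beside 8.45% of all genes tested. Of the 44 genes higher in NOD iPSC, 40 were also higher in NOD ESC, and of the 36 higher in WSB iPSC, 28 were also higher in WSB ESC. Of the 12 in the other direction, 3 had an ESC difference of at least 1 (Mcm10, Tshz2 and Igsf10), the last 2 of which were picked out after their values were seen. Feeder markers summed to 3848 to 5893 CPM in the 3 ESC of the series and 952 to 1399 CPM in the 6 clones, scaled over all 19 libraries, and their part in the ESC differences was not tested.

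**Figure D5:**
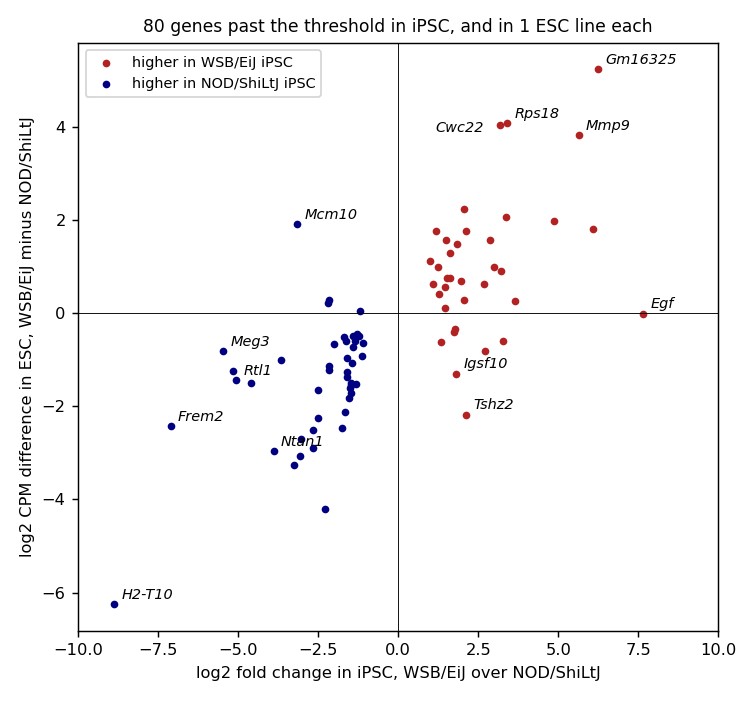
Difference in log2 CPM between the WSB and the NOD ESC line (vertical axis) against the log2 fold change of WSB over NOD iPSC (horizontal axis) for the 80 genes past the threshold in iPSC, 1 point per gene. In the lower left and upper right, 68 genes have the same direction in both cell states; Mcm10 lies in the upper left and Egf close to 0 in ESC.

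The 129 iPSC clones 1 and 17 in 2iS were set beside the 2 strains for the genes past the threshold. Of the 36 genes higher in WSB, the mean of the 129 clones on the log2 scale was nearer to NOD in 25 and nearer to WSB in 11. Of the 44 genes higher in NOD, it was nearer to WSB in 28 and to NOD in 16. In both directions 129 lay more often with the lower strain. The genes were chosen for a difference between WSB and NOD, and no share over all genes tested was taken. The counts therefore do not show which strain 129 is nearer to. For H2-T10 both 129 clones had 0 counts, on the WSB side, and for Cwc22 they had 10 and 11, on the NOD side. Ntan1 was on the NOD side, with 55 and 50 counts, and Rps18 on the WSB side, with 31 and 28. The 129 clones were male, at passages 31 and 30, and had been derived in ESC/LIF and moved to 2iS later, whereas the WSB and NOD clones were derived in 2iS. Sex, passage and the medium of derivation cannot be told apart from strain in these counts.

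The Euclidean distance between clones over all autosomal genes tested, in log2 CPM, was 38.1 to 42.8 in the 8 pairs between strains, 30.2 to 38.2 in the 6 pairs within WSB and 26.8 in the NOD pair. The ranges between strains and within WSB met, since WSB clones 25 and 28 (38.24) were farther apart than NOD clone 7 and WSB clone 12 (38.07). The mean between strains exceeded the mean within strains by 6.09 (exact one-sided permutation test over 15 ways to choose 2 of 6 clones, p = 0.0667, the smallest p that this design allows, so the test could not pass 0.05). The shallower libraries were all WSB, and the part of depth in these distances was not tested.

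Sex was not balanced, so the strain difference was also taken within females. In the 2 female WSB and 2 female NOD clones, 76 of the 80 genes could be tested and 52 passed. These are 4 of the same 6 libraries, so this is no independent test. Between female and male WSB clones, 13 (0.484%) of the autosomal genes passed, 9 higher in females and 4 in males. This count was 74 without WSB clone 23, 37 without NOD clone 52, 29 without WSB clone 28 and 6 without WSB clone 12, and DESeq2 gave 3. Of the 13, 2 also differed between the strains, Cmah and Erv3, an endogenous retroviral gene with 61 and 30 counts in NOD and 0, 4, 1 and 14 in WSB. The strain difference of Erv3 (log2 fold change -2.66, adjusted p = 0.016) did not pass with sex as a term (-1.57, 0.0547) or among females (-1.55, 0.0811).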

How the data were processed

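Stranded mRNA libraries were sequenced in read pairs. The authors trimmed the reads (Trimmomatic), aligned them to GRCm38 with TopHat2 2.1.1 and deposited raw counts of read pairs per gene from HTSeq, 23420 genes per library. The strand setting and the annotation release of the counting are not given in the sources used here. Rows for unassigned read pairs stayed out of library sizes.

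Clones were grouped by title. The 6 libraries were fitted in edgeR 4.0.16 (R 4.3.3; TMM, filterByExpr, glmQLFit, glmQLFTest) with strain as the only term, over all chromosomes; the sexes of WSB were compared in a fit of 3 groups (WSB male, WSB female, NOD female). Benjamini-Hochberg adjusted p under 0.05 over all 2787 genes tested was the threshold. CPM take the counts on the genes tested as library size and include TMM, standard errors come from the fit, and ESC differences used a prior count of 2. Distances used scipy 1.17.1. Intervals are exact and, with the floors of 3 counts, cover counting error only. DESeq2 1.42.0 and other filters, scalings, terms and samples were alternatives. Models were tested on simulated counts.

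Positions are from GENCODE M21 on GRCm38, with 21785 genes matched by symbol, 1305 by an older symbol and 193 to RefSeq only, and 137 unmatched.

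Named genes were the 12 with the largest change in each direction among autosomal genes past the threshold whose groups did not overlap, list members past it, and Actb, Gapdh, Eef1a1 and Eef2. The members and the gene lists were chosen with earlier results of these data known.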

Additional observations from a re-analysis of the deposited data

Results flagged for a closer look

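In the 4 WSB clones, 1 clone stood apart from the other 3 for 9 of the 29 named genes with a test, by Dixon's criterion, which chance meets in about 1 of 20 groups. WSB clone 23 was apart for Dnahc8 (2095 CPM), Meg3 (37.4 CPM), Rian (24.9 CPM) and Rtl1 (112 CPM). WSB clone 25 was apart for Cwc22 (1192 CPM) and H2-T24 (86.0 CPM). WSB clone 28 was apart for Dfna5 (44.2 CPM, the lowest), H2-T10 (22.1 CPM) and Ly6e (22.1 CPM). For Meg3, Rian, Rtl1, H2-T10 and Ly6e the other 3 WSB clones had 0 counts, so that any count meets the criterion. For Cwc22 the other 3 WSB clones lay at 786 to 807 CPM.

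In 3 named genes every WSB iPSC clone lay on 1 side of both NOD clones and the 1 WSB ESC line lay on the other side of the 1 NOD ESC line. The log2 CPM difference of WSB minus NOD in ESC was 1.91 for Mcm10, -0.60 for Smurf1 and -0.0059 for Egf, which had 1 count in each ESC library. Whether the strain difference differs between iPSC and ESC was not tested.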

How the results depend on the processing

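Of the 80 genes, 80 passed with the scaling of DESeq2, 78 where low counts were kept, 70 with aligned read pairs as library size, 58 with sex as a term, 53 in DESeq2's Wald test, 52 of 76 among females, 33 of 78 without NOD clone 7 and 25 of 76 without NOD clone 52. Their direction was nearly fixed by groups that do not overlap and is no sign of stability. The count was 171 (65 higher in WSB, 106 in NOD) with low counts kept, 21 (12 and 9) with at least 10 counts in every library, where 1190 genes were tested, and 43 (21 and 22) among genes without opposite-strand exons. DESeq2 gave 28 genes higher in NOD. With uniquely aligned read pairs as library size, 40 were higher in WSB and 34 in NOD. Groups by source name and characteristics gave 0 in edgeR, with 178 at an unadjusted p under 0.05 (363 by title), and were not run in DESeq2. Leaving out 1 clone gave 28 to 117 genes, 9 to 55 higher in WSB and 18 to 62 higher in NOD; the least were without NOD clones 52 and 7, where the lone NOD library is assumed to vary like the others. The count between WSB sexes was 3 in DESeq2, 2 with WSB alone, 2 with at least 10 counts, and 6 to 74 with 1 clone left out. The excess distance between strains was 2.50 to 6.14 under other transformations and 4.47 to 7.77 with 1 clone left out. The cause of these changes, beyond fewer genes or samples, was not tested. No paired analysis was possible because clone numbers are not shared between the strains.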

Other observations

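The genes higher in NOD outside the rule for named genes, chosen after their values were seen, included Sod2, the mitochondrial superoxide dismutase, with 22 and 31 counts in NOD and 5, 5, 3 and 3 in WSB (log2 fold change -2.20 ± 0.42, adjusted p = 0.00441). In the ESC, Sod2 had 4 counts in NOD and 5 in WSB. Kif24, a kinesin of the centriole, had 38 and 19 counts in NOD and 4, 6, 3 and 4 in WSB (-2.18 ± 0.43, adjusted p = 0.0056), and it did not pass with sex as a term (0.0572) or among females (0.0682).

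Cdh1, Plec, Dst and Cald1, also chosen after their values were seen, were higher in WSB, and no group of genes was tested. Cdh1, or E-cadherin, had 37 and 20 counts in NOD and 71, 39, 38 and 45 in WSB (1.27 ± 0.29, adjusted p = 0.0159). Plec, the cytolinker plectin, had 11 and 8 in NOD and 31, 23, 34 and 26 in WSB (2.13 ± 0.39, adjusted p = 0.00313). Dst, the cytolinker dystonin, had 24 and 38 in NOD and 106, 29, 43 and 80 in WSB (1.503 ± 0.351, adjusted p = 0.0189). Cald1, the actin-binding protein caldesmon, had 9 and 9 in NOD and 32, 6, 20 and 42 in WSB (1.97 ± 0.52, adjusted p = 0.0436). Cald1 could not be tested among females. All 4 were also higher in the WSB ESC than in the NOD ESC, by 0.41 to 1.77 in log2 CPM, as were 28 of the 36 genes higher in WSB. Other cytoskeletal genes went the other way. Gas2l1 (log2 fold change -2.28, adjusted p = 0.00297) and Iffo1 (-1.63, adjusted p = 0.0415) were higher in NOD, so the 4 do not stand for a group.

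The male NOD clones 3 and 35, which were left out, had 309 and 208 counts of H2-T10 and 230 and 127 of Mcm10, of 567432 and 430173 read pairs counted, and 0 counts each of Gm16325.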
